A study of Mus musculus with 6 samples.

Results

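The enzymes described here add or remove tyrosine and glutamate on the tails of tubulin. The members are 10 genes taken by symbol from the table of read counts, which holds 23420 gene symbols: the ligase Ttl and its relatives Ttll1, Ttll4, Ttll5, Ttll7, Ttll11 and Ttll12, the vasohibins Vash1 and Vash2, and the carboxypeptidase Agbl5. All 10 were found, and all 10 passed the filter on low counts, as did 11608 genes in all. The list was selected on these same counts, in which Ttll7 was among the genes with the largest decrease between the groups. The comparison of β1-K794Q-GFP with β1-WT-GFP cells is therefore given for the members as a description, with no p-value.

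Microtubules are polymers of α- and β-tubulin whose C-terminal tails project from the polymer surface and carry reversible modifications. Vasohibins, bound to their small partner protein, cut the last tyrosine from α-tubulin, mostly on stable microtubules, and tubulin tyrosine ligase puts it back on free tubulin. Other members of the ligase family attach glutamate side chains to the tails of either tubulin, and cytosolic carboxypeptidases shorten or remove them. The modified tails affect how motors, severing enzymes and microtubule-associated proteins bind. In endothelial cells Vash1 is best known as a secreted inhibitor of angiogenesis, and Vash2 as a promoter of it.

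The 2 groups were 3 cultures each (A, B and C, in which order values are listed throughout) of eEnd2 cells, a line of mouse embryonic endothelial cells. All cultures carried a stably transfected human Integrin-β1A with eGFP in its extracellular part, driven by a short fragment of the human β-actin promoter with a chicken lysozyme matrix attachment region. The β1-WT-GFP cells expressed the wildtype and the β1-K794Q-GFP cells the acetylation-mimetic K794Q form, in which glutamine replaces a lysine of the cytoplasmic tail. Cells were pools sorted for GFP, grown to confluence in DMEM with 10% fetal calf serum and otherwise untreated. The design text of the series speaks of a low and a high GFP population without naming which one each culture came from. GFP level may thus have differed between the groups or within them, and its part cannot be told apart here. The paper reports similar expression of both forms, unchanged over passages. The comparison is of transcript levels in cells with the mimetic form, the paper's model of constitutive acetylation, and in cells with the wildtype form. The study also aligned reads to the human genome to check the level of the chimera. The table counts reads of mouse genes, so it holds no row for the human chimera with which the labels could be checked.

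Library totals ranged from 9589826 to 15287191 counts, and the limit set by a count of 0 (taken as 3 reads) equalled between 0.209 and 0.300 CPM (read counts scaled to library size with TMM factors). The cultures of a group were unequally alike: among tested genes, β1-WT-GFP cultures A and B were 2-fold or more apart in 65, but culture C was so in 2701 (from A) and 2539 (from B). For β1-K794Q-GFP cells, culture B was 2-fold or more apart from A in 2001 and from C in 2562, and the remaining pair differed in 903. β1-WT-GFP culture C and β1-K794Q-GFP culture B thus stood apart from the others of their group. All 16 endothelial markers examined were tested and 0 passed both thresholds (defined below) in edgeR or DESeq2, against 5.19% of all tested genes in edgeR. In edgeR 1 marker was below the p threshold before adjustment, against 10.2% of all tested genes. It was Fli1, with 120, 115 and 199 CPM in β1-WT-GFP and 296, 267 and 244 CPM in β1-K794Q-GFP cells, without overlap. The summed level of the 16 markers was 9725 to 10689 CPM in β1-WT-GFP and 8031 to 14931 CPM in β1-K794Q-GFP cells. Single markers varied more than the sum: Cldn5, a tight junction gene, had 267, 252 and 4.74 CPM in β1-WT-GFP and 17.5, 0 and 24.3 CPM in β1-K794Q-GFP cells, while Sox17 (0.296 CPM) and Flt1 (31.3 CPM) were lowest in culture B of the latter. The 6 epithelial markers summed to at most 0.592 CPM in any culture. The 6 leukocyte markers summed to 48.3 to 89.0 CPM in β1-WT-GFP and 31.9 to 104 CPM in β1-K794Q-GFP cells. Most of this was Cd68, while Csf1r had 10.7 CPM in β1-WT-GFP culture C. The 6 neural markers summed to 0.700 to 7.73 CPM in β1-WT-GFP and 0.516 to 6.61 CPM in β1-K794Q-GFP cells. Tubb3 had 7.17 CPM in β1-WT-GFP culture C, and Rbfox3 3.26 and Snap25 2.37 CPM in β1-K794Q-GFP culture B. The 11 mesenchymal markers summed to between 85.5 and 195 CPM in β1-WT-GFP cells and between 2.58 and 3.75 CPM in β1-K794Q-GFP cells. In that list 4 genes (Twist1, Thy1, Lum and Dcn) had 0 counts in every culture, and most of the sum in every β1-WT-GFP culture was Prrx1, a homeobox transcription factor, with 183, 194 and 56.5 CPM in β1-WT-GFP cells and 0.0963, 0.0987 and 0 CPM in β1-K794Q-GFP cells. The rest of the list did not follow it: Pdgfra had 0.525, 0.700 and 16.4 CPM in β1-WT-GFP and 2.31, 0.296 and 0.946 CPM in β1-K794Q-GFP cells, and Pdgfrb, Col1a1, Col3a1 and Acta2 were at or below 0.200 CPM in the first 2 β1-WT-GFP cultures and highest in culture C of that group. Col1a2 had reads in β1-K794Q-GFP cultures only, with 3.16 CPM in B.

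Ttll7 encodes a polyglutamylase that acts mainly on β-tubulin and is best known from neurons. It had 351, 413 and 645 reads in β1-WT-GFP cells, and 0, 0 and 1 reads in β1-K794Q-GFP cells. In normalized counts this was 30.7, 41.3 and 44.9 CPM, a mean of 39.0 ± 7.39 (SD, n = 3), against 0, 0 and 0.0860 CPM. Every β1-WT-GFP culture had at least 351 reads, and every β1-K794Q-GFP culture was below its own limit of 3 counts. Summed over cultures, 1409 reads stood against 1, a ratio of 1265 after scaling for depth (95% exact binomial interval 227 to 50019, counting error only). As the lower group rests on a single read, the size of the ratio is poorly known. The interval pools the reads of the cultures and leaves out the spread between them, so its lower end is no firm limit. The fitted log2 fold change of -9.86 (standard error 0.62) depends on the prior count of the fit, with a range from -11.78 to -9.43 when single cultures were omitted. In bulk RNA, fewer cells expressing a gene and less RNA per cell cannot be told apart. Of the mesenchymal markers, Prrx1 was likewise high in all β1-WT-GFP and near 0 in all β1-K794Q-GFP cultures, whereas the other markers of that list were at or below 0.700 CPM in the first 2 β1-WT-GFP cultures, where Ttll7 was at 30.7 and 41.3 CPM.

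**Figure D1:**
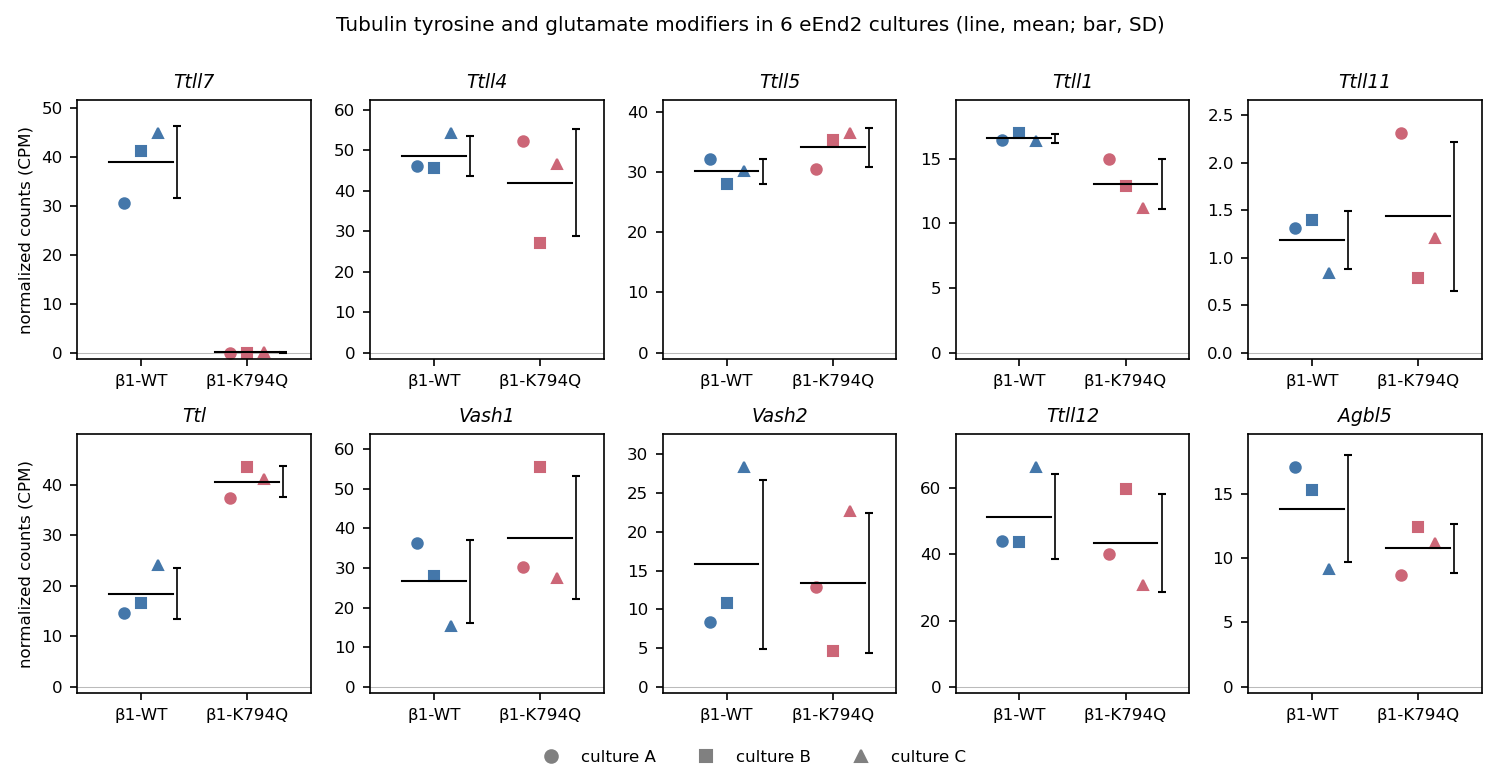
Normalized counts (CPM) of the 10 genes in each culture, on a linear axis of its own for each gene. Circles, squares and triangles are cultures A, B and C, lines are means and bars are SDs. Ttll7 lay at 30.7 to 44.9 CPM in β1-WT-GFP cells and at or near 0 in β1-K794Q-GFP cells, Ttl and Ttll1 did not overlap between the groups, and the other 7 genes did.

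Ttll7 lies on the forward strand of chromosome 3 (GRCm38, GENCODE M21, 146852367 to 146984009), with 22 merged exons and no other annotated gene overlapping it. Ttl, the other member with a more than 2-fold difference, lies on chromosome 2 (129065942 to 129096283, forward strand, 8 merged exons). Windows of 300 bases around their starts (250 before and 50 after) are shown because these are the promoters of the members that were more than 2-fold lower and higher in β1-K794Q-GFP cells. They are RefSeq windows of GRCm38.p6, chr3:146852117-146852416 and chr2:129065697-129065996, written 5′ to 3′ on the forward strand with each CG dinucleotide in capitals.
Ttll7: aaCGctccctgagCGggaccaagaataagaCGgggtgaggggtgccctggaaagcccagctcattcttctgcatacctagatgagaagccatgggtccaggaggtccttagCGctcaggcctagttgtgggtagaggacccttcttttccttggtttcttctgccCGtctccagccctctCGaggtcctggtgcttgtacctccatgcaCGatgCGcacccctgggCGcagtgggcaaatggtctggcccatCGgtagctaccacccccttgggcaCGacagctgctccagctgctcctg
Ttl: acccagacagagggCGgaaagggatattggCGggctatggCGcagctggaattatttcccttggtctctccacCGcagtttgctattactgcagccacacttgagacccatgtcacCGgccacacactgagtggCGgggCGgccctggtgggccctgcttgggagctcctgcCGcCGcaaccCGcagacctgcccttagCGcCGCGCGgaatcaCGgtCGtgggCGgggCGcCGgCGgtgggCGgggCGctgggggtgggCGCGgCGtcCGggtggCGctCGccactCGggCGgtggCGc
The Ttll7 window held 11 CG dinucleotides at a GC content of 60.0%, and 41.7% of all 32544 promoter windows held at least as many. The Ttl window held 31 at a GC content of 70.0%, and 10.7% of windows held at least as many. Of the 10 genes 8 had a window, with 12 windows in all, and the one of Ttll7 had the fewest CG dinucleotides of these. The GC box GGGCGG, searched on both strands, was found 5 times in the Ttl window and 0 times in that of Ttll7, while 35.9% of all windows held at least 1. The motif TATAAA, also searched on both strands, occurred in neither, and in 13.6% of all windows. These matches describe the letters only, and no measure of chromatin or factor binding was used here.

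The other genes of glutamate ligases had counts in all 6 cultures. Ttll4 starts glutamate chains and also modifies nucleosome assembly proteins. It had 46.0, 45.6 and 54.3 CPM in β1-WT-GFP cells and 52.3, 27.1 and 46.5 CPM in β1-K794Q-GFP cells, with β1-K794Q-GFP culture B at 0.549 of the mean of A and C. The groups overlapped, and the log2 fold change was -0.21 (standard error 0.27). Ttll5, a ligase of α-tubulin tails, had the smallest difference of the 10 in size, with 32.1, 28.0 and 30.2 CPM in β1-WT-GFP and 30.4, 35.3 and 36.5 CPM in β1-K794Q-GFP cultures. The groups overlapped, at a log2 fold change of 0.18 (SE 0.17).
Ttll1 is the catalytic subunit of a multi-protein polyglutamylase. It had 16.4, 17.0 and 16.4 CPM in β1-WT-GFP cells, which lay within a factor of 1.04, and 15.0, 12.9 and 11.2 CPM in β1-K794Q-GFP cultures. All β1-K794Q-GFP cultures lay below all β1-WT-GFP cultures, but by less than 2-fold (log2 fold change -0.35, standard error 0.21). Ttll11, which lengthens existing chains, was close to the limit of detection at 1.31, 1.40 and 0.836 CPM in β1-WT-GFP and 2.31, 0.790 and 1.20 CPM in β1-K794Q-GFP cultures. These values came from 8 to 24 reads per culture, and the groups overlapped (log2 fold change 0.28, standard error 0.54).

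To set genes beside each other, levels were scaled per kb of merged exons of all annotated transcripts. That length was 15.9 kb for Ttll5 (20 transcripts) and 2.91 kb for Ttll1 (4 transcripts). Which transcripts the cells made was not measured, so shares, sums, ratios and orders of genes per kb are approximate. On this scale Ttll7 made up 23.7%, 29.6% and 30.4% of the summed level of the 5 glutamate ligases (Ttll1, Ttll4, Ttll5, Ttll7 and Ttll11) in β1-WT-GFP cells. In β1-K794Q-GFP cultures its share was 0%, 0% and 0.0992%. The sum of all 5 was 15.7, 16.9 and 17.9 CPM per kb in β1-WT-GFP and 12.2, 9.22 and 10.5 CPM per kb in β1-K794Q-GFP cultures, and these ranges did not overlap. With Ttll7 left out, the sum was 12.0, 11.9 and 12.4 CPM per kb against 12.2, 9.22 and 10.5 CPM per kb, and the ranges did overlap. Only β1-K794Q-GFP culture A reached the β1-WT-GFP range of the sum without Ttll7. The full separation of the sums thus rests on Ttll7, whose decrease was known when the list was selected.

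**Figure D2:**
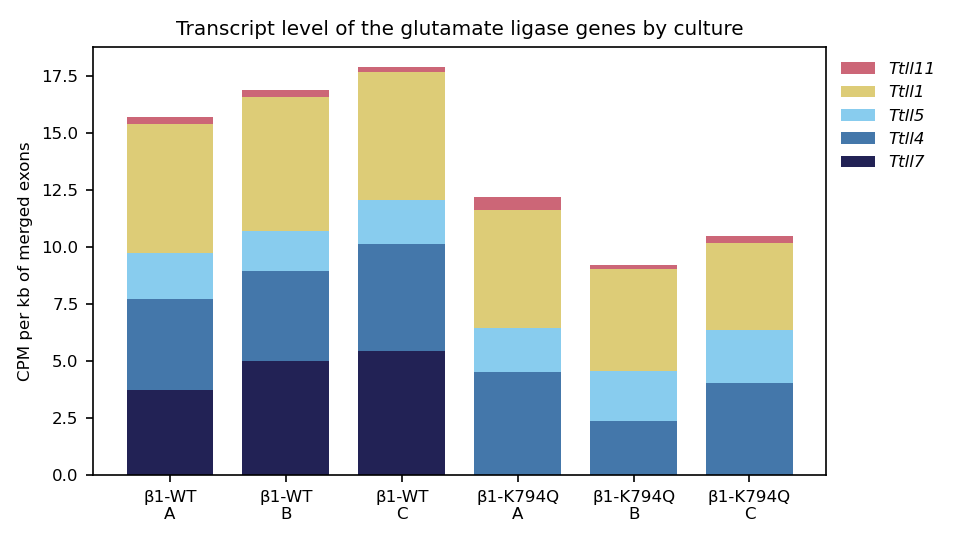
Stacked transcript levels of 5 glutamate ligase genes in each culture, in CPM per kb of merged exons on an axis that starts at 0. The darkest segment, Ttll7, is present in the 3 β1-WT-GFP cultures (23.7% to 30.4% of a bar) and is not visible in the 3 β1-K794Q-GFP cultures, whose bars reach 9.22 to 12.2 CPM per kb.

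Ttl, the ligase that returns tyrosine to α-tubulin, was higher in β1-K794Q-GFP cells. It had 14.6, 16.5 and 24.2 CPM in β1-WT-GFP cells and 37.3, 43.4 and 41.1 CPM in β1-K794Q-GFP cells. The lowest β1-K794Q-GFP culture was thus above the highest β1-WT-GFP culture, and the β1-K794Q-GFP cultures were within a factor of 1.17 of each other. The means were 40.6 ± 3.11 against 18.4 ± 5.06 CPM (SD, n = 3 each), and the log2 fold change was 1.14 (SE 0.24). β1-WT-GFP culture C was 1.55 times the mean of A and B, and without it the log2 fold change was 1.40. Without β1-WT-GFP culture A it was 0.99, just under a 2-fold change.
Vash1 and Vash2, which remove the same tyrosine, varied widely within the groups, which overlapped. Vash1 had 36.4, 28.0 and 15.5 CPM in β1-WT-GFP cells and 30.1, 55.4 and 27.4 CPM in β1-K794Q-GFP cells, which amounts to 0.50 on the log2 scale (SE 0.41). Vash2 had 8.31, 10.8 and 28.3 CPM in β1-WT-GFP and 12.9, 4.64 and 22.7 CPM in β1-K794Q-GFP cultures, or -0.24 on the log2 scale (SE 0.69, from -0.85 to 0.50 when single cultures were omitted).
The cultures that stood apart in the libraries as a whole were also the extreme ones here. In β1-WT-GFP culture C, Vash1 was at 0.480 and Vash2 at 2.97 times the mean of A and B. In β1-K794Q-GFP culture B, Vash1 was at 1.92 and Vash2 at 0.261 times the mean of A and C. Per kb, the level of Vash1 was 7.27, 4.30 and 0.905 times that of Vash2 in β1-WT-GFP cells and 3.88, 19.8 and 2.01 times in β1-K794Q-GFP cells. As these ratios overlapped, the balance of the vasohibins did not separate the groups.
The level of Ttl relative to the sum of Vash1 and Vash2, per kb, was 0.154, 0.209 and 0.325 in β1-WT-GFP cells and 0.430, 0.326 and 0.437 in β1-K794Q-GFP cells. The groups met at 0.325 and 0.326, between β1-WT-GFP culture C and β1-K794Q-GFP culture B. Both vasohibins need the partner protein encoded by Ccdc23 (Svbp), which had 12.2 ± 1.11 CPM in β1-WT-GFP and 13.7 ± 5.04 CPM in β1-K794Q-GFP cells (SD, n = 3 each).

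Ttll12 resembles the ligases but is not known to modify tubulin itself. It had 44.2, 43.7 and 66.3 CPM in β1-WT-GFP cells and 40.0, 59.8 and 30.8 CPM in β1-K794Q-GFP cells, with overlapping groups (log2 fold change -0.24, standard error 0.31). Agbl5 removes the glutamate that joins a side chain to the tail. It had 17.1, 15.3 and 9.12 CPM in β1-WT-GFP and 8.67, 12.4 and 11.2 CPM in β1-K794Q-GFP cultures, again overlapping (log2 fold change -0.36, standard error 0.31). Ost4, on the opposite strand, shares 9.60% of the merged exon bases of Agbl5, so reads of the 2 genes could be mixed if strand was not used in counting, which the sources used here do not give. None of the other 9 genes shared exon bases with another annotated gene.

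A gene was counted as past both thresholds when it changed 2-fold or more and its p before adjustment was no higher than 0.05 in the quasi-likelihood test of edgeR, the thresholds of the study. Of the 10 members 2 were past both, 1 lower (Ttll7) and 1 higher (Ttl). Among all tested genes 5.19% were past both, 1.71% lower and 3.48% higher. In 3 members (Ttll7, Ttl and Ttll1) the cultures of the groups did not overlap, which held for 16.6% of all tested genes. Nothing is read from these counts, as the list was selected on this comparison. The median log2 fold change was -0.23 over the members and -0.02 over all tested genes.
In β1-WT-GFP cells the levels per kb ran, from the highest, through Ttll12 (12.7 CPM per kb), Vash1 (10.2), Ttll1 (5.70), Ttll7 (4.71), Ttll4 (4.22), Vash2 (3.67), Ttl (3.10), Agbl5 (1.96), Ttll5 (1.90) and Ttll11 (0.294). The ranges of neighbours in this order overlapped except between Vash1 and Ttll1, Ttll1 and Ttll7, Ttl and Agbl5, and Ttll5 and Ttll11. In β1-K794Q-GFP cells Vash1 (14.5 CPM per kb) and Ttll12 (10.8) were again the highest 2, with overlapping ranges. Ttl followed in the third place at 6.83 CPM per kb, apart from both of its neighbours, and Ttll7 was last at 0.00347. Ttl thus stood in the seventh place in one group and the third in the other, and Ttll7 in the fourth and the last. These places also depend on the merged exon lengths used for scaling.

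**Figure D3:**
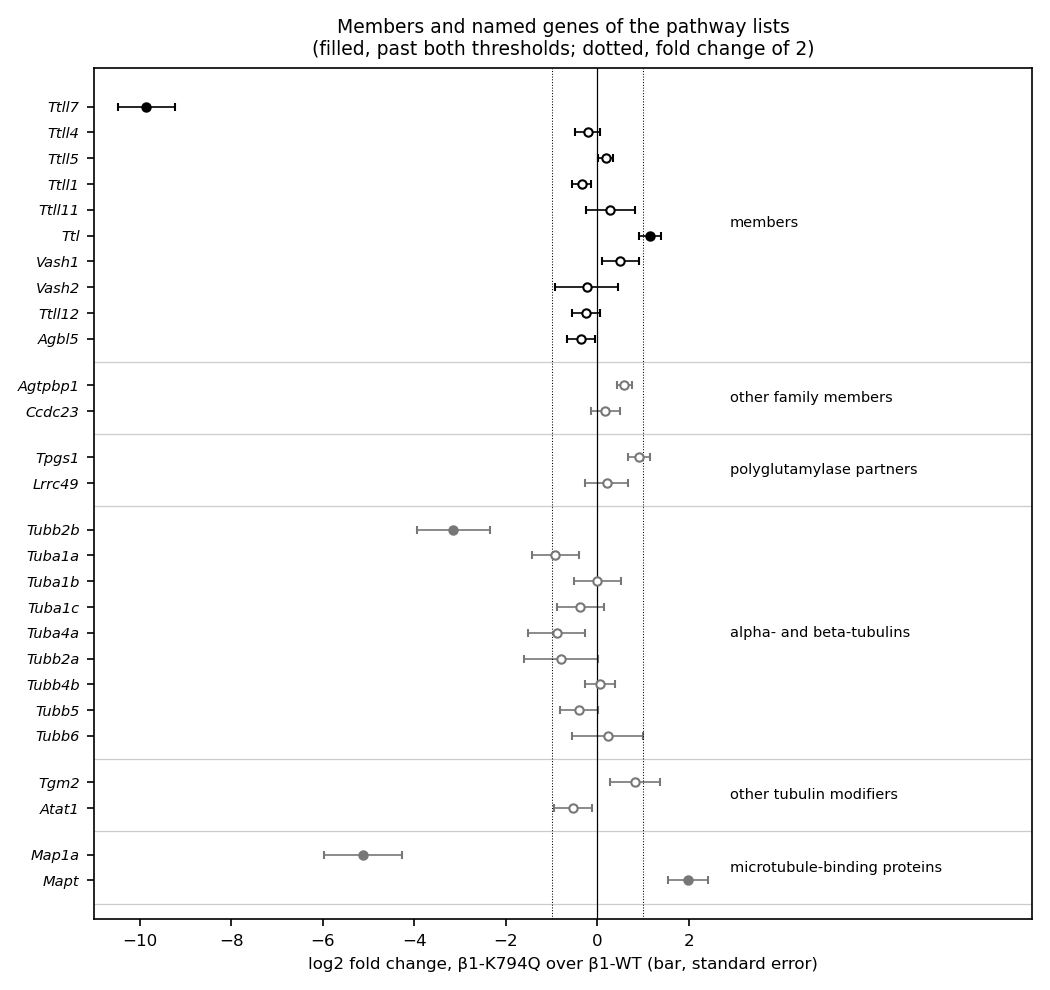
Log2 fold change of β1-K794Q-GFP over β1-WT-GFP cells for the 10 members (black) and for named genes of the 5 pathway lists (grey), with the standard error as a bar. Filled points were past both thresholds and dotted lines mark a 2-fold change. Ttll7 at -9.86 is far from all other members, which lie between -0.36 and 1.14, and its exact position depends on the prior count of the fit.

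Genes that work with the members were examined in 5 lists of 63 genes, none of them a member, of which 60 were in the table and 41 were tested. These lists too were chosen with earlier results of these data known, so their counts and p-values are a description. Past both thresholds were 3 (Map1a and Tubb2b lower, Mapt higher), against 5.19% of all tested genes. After Benjamini-Hochberg adjustment edgeR called 0 of the 41 at 0.05, against 0.181% of all genes, while 5 reached 0.05 before adjustment, against 10.2% of all genes. DESeq2 called 4 after adjustment (Tpgs1, Tubb2b, Map1a and Mapt), against 4.15% of the 11487 genes to which it gave an adjusted p. The median log2 fold change of the 41 was -0.10. In 6 of them (Map1a, Tubb2b, Mapt, Tpgs1, Agtpbp1 and Katnal1) the groups did not overlap, against 16.6% of all tested genes.
Among the 22 microtubule-binding proteins (motors, severing enzymes and plus-end and lattice binders) 19 were tested, and 2 were past both thresholds, in opposite directions. Map1a encodes a microtubule-associated protein that is most abundant in mature neurons. Its level was 109, 103 and 250 CPM in β1-WT-GFP cells and 3.85, 0.888 and 8.34 CPM in β1-K794Q-GFP cells. Map1a was thus lower in every β1-K794Q-GFP culture, a difference of -5.13 on the log2 scale (SE 0.85), but it missed the threshold after adjustment (quasi-likelihood test of edgeR, Benjamini-Hochberg adjusted p = 0.0955). Mapt, which encodes tau, was higher but at a low level, 0.962, 1.50 and 1.18 CPM (11 to 17 reads) in β1-WT-GFP against 3.08, 6.81 and 4.56 CPM in β1-K794Q-GFP cultures, a difference of 1.98 on the log2 scale (SE 0.44, edgeR adjusted p = 0.171). Omitting any single culture left Map1a (-6.01 without β1-K794Q-GFP culture C to -4.58 without β1-WT-GFP culture C) and Mapt (1.65 to 2.22) past both thresholds. With all cultures, the other 17 genes of this list were not past them.
Of the 15 α- and β-tubulin genes 9 were tested, and 1 was past both thresholds. Tubb2b had 5.86, 4.90 and 27.8 CPM in β1-WT-GFP cells and 2.02, 1.28 and 1.03 CPM in β1-K794Q-GFP cultures, a difference of -3.15 on the log2 scale (SE 0.80, edgeR adjusted p = 0.228). With culture C of the β1-WT-GFP cells omitted it was -1.88 and still past both thresholds. The tubulin gene with the most reads, Tubb5, had 634, 660 and 1329 CPM in β1-WT-GFP and 523, 514 and 948 CPM in β1-K794Q-GFP cultures, with overlapping groups. On the log2 scale the difference was -0.40 (SE 0.42), and 0.045 without β1-WT-GFP culture C. For the other tubulin genes above a mean of 10 CPM the log2 fold changes were -0.92 for Tuba1a, -0.01 for Tuba1b, -0.38 for Tuba1c, -0.89 for Tuba4a, -0.80 for Tubb2a, 0.06 for Tubb4b and 0.23 for Tubb6, each with overlapping groups. All 7 were highest, among β1-WT-GFP cultures, in culture C, as for Tubb6 with 30.8, 23.3 and 178 CPM against 71.8, 108 and 91.8 CPM. Without that culture Tubb6 was past both thresholds, at a log2 fold change of 1.76 (SE 0.25). The summed level of the 15 genes was 924 to 2176 CPM in β1-WT-GFP and 818 to 1407 CPM in β1-K794Q-GFP cells. Tubulin genes are close copies of each other, and reads shared between them make the value of any single one uncertain.
The other lists held 0 genes past both thresholds in edgeR or DESeq2, with 2 below the p threshold before adjustment in each tool. In edgeR these were Tpgs1, a subunit of the polyglutamylase that contains Ttll1, and Agtpbp1, a carboxypeptidase that shortens glutamate chains. Tpgs1 had 13.3, 13.9 and 11.4 CPM in β1-WT-GFP and 22.0, 30.8 and 20.0 CPM in β1-K794Q-GFP cultures, with no overlap and less than 2-fold apart (log2 0.92, SE 0.24, edgeR adjusted p = 0.242), and it was past both thresholds without β1-K794Q-GFP culture C (log2 1.04). Agtpbp1 had 37.4, 34.6 and 30.2 CPM against 50.8, 47.3 and 55.6 CPM, also with no overlap (log2 0.59, SE 0.17, edgeR adjusted p = 0.275). Lrrc49, another subunit of the same complex, had 7.96, 7.70 and 19.9 CPM against 10.6, 11.3 and 19.3 CPM, with overlap. Of the 15 other relatives of the members 4 were tested, and 5 had no read in any culture (Ttll6, Ttll8, Ttll10, Agbl1 and Agbl4). The tubulin acetyltransferase gene Atat1 had 16.9 ± 7.34 CPM in β1-WT-GFP and 11.7 ± 3.49 CPM in β1-K794Q-GFP cells (SD, n = 3 each), with overlapping groups. Tgm2, a transglutaminase that can attach polyamines to tubulin, had 93.9, 89.1 and 54.9 CPM in β1-WT-GFP and 80.2, 264 and 75.1 CPM in β1-K794Q-GFP cells, high in culture B of the latter.

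**Figure D4:**
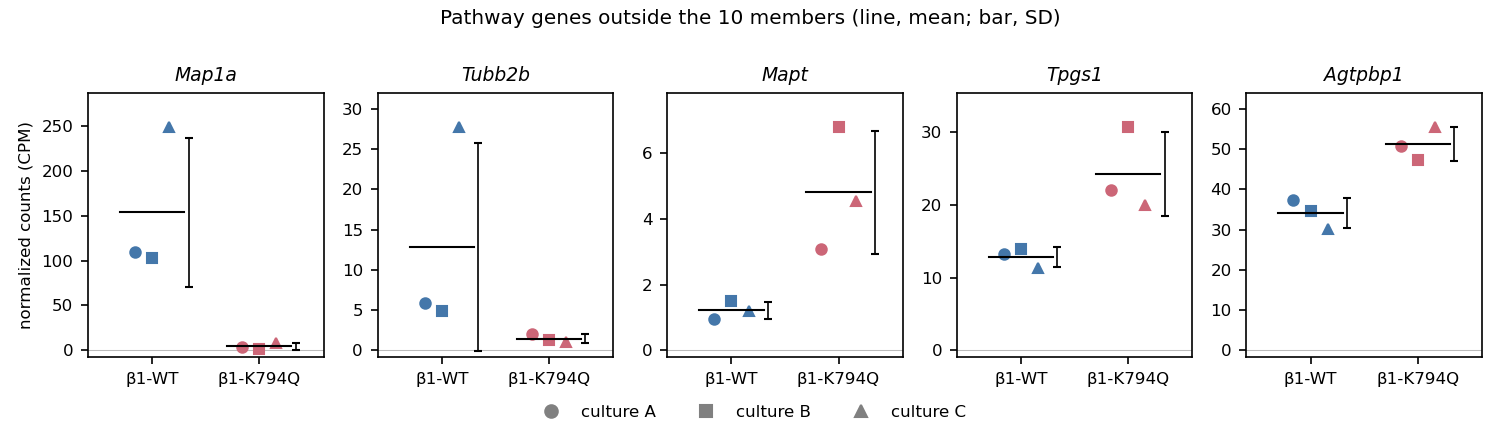
Normalized counts (CPM) of 5 genes outside the 10 members in each culture, with lines at the mean and bars for the SD. Map1a and Tubb2b were lower and Mapt, Tpgs1 and Agtpbp1 higher in β1-K794Q-GFP cells, without overlap, and β1-WT-GFP culture C was the highest for Map1a (250 CPM) and Tubb2b (27.8 CPM).

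Over the 6 cultures, the 5 genes whose log2(CPM + 0.5) was most like that of Ttll7, among 11483 genes with a mean of at least 1 CPM, were Klhl13, Diap1, Lrp4, Prrg3 and Nefl (Pearson r from 0.995 to 0.999). With 2 separated groups of 3 such correlations mostly restate the difference between groups, and 100 genes had an r of at least 0.95. Klhl13 and Prrg3 had reads in every β1-WT-GFP culture and none in any β1-K794Q-GFP culture, at 22.9 ± 3.88 and 10.2 ± 3.82 CPM in β1-WT-GFP cells (SD, n = 3). Nefl, the gene of a neurofilament subunit, had 5.86, 5.50 and 5.43 CPM in β1-WT-GFP cultures and 1 read in all β1-K794Q-GFP cultures together. Lrp4 had 18 to 31 reads in β1-WT-GFP cultures and 1 or 2 in β1-K794Q-GFP cultures. Diap1 followed the same order with a small difference, 122 ± 2.14 against 96.4 ± 1.68 CPM (SD, n = 3 each).

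The nearest tested genes on the 2 sides of Ttll7 were read at similar levels in both groups or varied within a group. Of the 4 nearest tested genes on each side 0 were past both thresholds in edgeR or DESeq2, against 5.19% of all tested genes in edgeR. Of these 8 neighbours 0 reached the p threshold before adjustment in either, against 10.2% of all tested genes in edgeR. The log2 fold changes of the 8 neighbours lay between -0.56 and 0.46, with adjusted p from 0.808 to 0.974 in edgeR's test. For Lphn2, Ifi44 and Ifi44l the standard errors were 1.06 to 1.45. The nearest, Prkacb, a catalytic subunit of protein kinase A whose gene (146729574 to 146812990) lies before Ttll7, had 115, 158 and 134 CPM in β1-WT-GFP and 126, 164 and 146 CPM in β1-K794Q-GFP cultures. On the other side the next tested gene, Lphn2, begins 1963 kb after the start of Ttll7, and it had 311, 353 and 376 CPM in β1-WT-GFP cells against 671, 1.68 and 760 CPM in β1-K794Q-GFP cells. Lphn2 was therefore low in culture B alone, whereas Ttll7 was at or near 0 in all 3. Without that culture Lphn2 was past both thresholds and higher in β1-K794Q-GFP cells (log2 1.05, SE 0.22). The other 6 genes were Spata1 (log2 fold change -0.44), Gng5 (-0.25) and Rpf1 (0.04) before Ttll7, and Eltd1 (0.34), Ifi44 (-0.56) and Ifi44l (0.43) after it. Eltd1, Ifi44 and Ifi44l begin 4586 to 4906 kb after the start of Ttll7. Ifi44, an interferon-induced gene, had 734, 891 and 35.1 CPM in β1-WT-GFP cells and 667, 282 and 176 CPM in β1-K794Q-GFP cells, low in the β1-WT-GFP culture that stood apart.

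**Figure D5:**
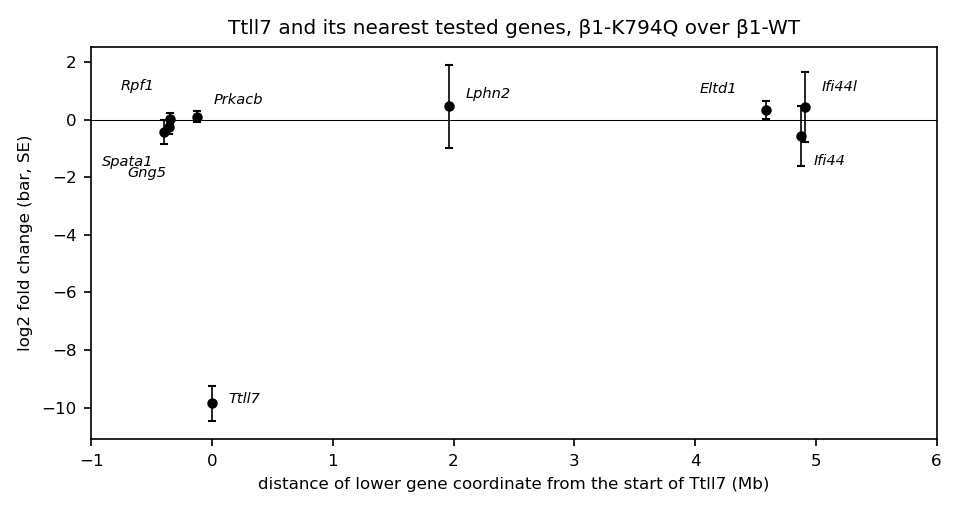
Log2 fold change of β1-K794Q-GFP over β1-WT-GFP cells (bars, standard error) against the distance of each gene's lower coordinate from the start of Ttll7, in Mb, for Ttll7 and the 4 nearest tested genes on each side. Ttll7 is at -9.86 and its neighbours are between -0.56 and 0.46.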

How the data were processed

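RNA of 3 β1-WT-GFP and 3 β1-K794Q-GFP cultures was sequenced after ribosomal RNA depletion. The study describes a pair of sequencing runs of the same samples, and which run these counts hold is not given in the sources used here. The authors deposited 1 table of unnormalized read counts per mouse gene symbol in 6 columns named for the cultures; the submitters' processing notes name bcl2fastq 2.20.0, STAR 2.7.4a, HTSeq 0.9.1, edgeR 3.38.4 and mm10. Annotation and strand setting are not given in the sources used here. The counts were analysed with edgeR 4.0.16 in R 4.3.3 (filterByExpr, TMM, glmQLFit and glmQLFTest, two-sided, 3 against 3, Benjamini-Hochberg over 11608 genes), the test named in the study's methods, after the script was tested on simulated counts. Standard errors are the log2 fold change over the square root of F. Alternatives were DESeq2 1.42.0, 2 other filters, RLE factors, a likelihood ratio test, a block on the culture letter and the omission of single cultures.

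Members and lists were chosen with earlier results of these data known. Named were all members, list genes past both thresholds (otherwise the 2 largest changes), tubulins over 10 CPM, 5 genes most like Ttll7 and its 8 neighbours. Of the table's symbols 23032 matched GENCODE M21 (GRCm38, the same build as mm10). Svbp and Cep41 were found as Ccdc23 and Tsga14. The study's methods describe separate cultures of the sorted cells, so p-values measure the spread between cultures and not between independently made lines. Python 3.11.15 was used for tables and figures.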

Additional observations from a re-analysis of the deposited data

How the results depend on the processing

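The number of genes past both thresholds was 603. It was 916 with no filter on low counts, and from 501 to 992 when single cultures were omitted (942 without β1-K794Q-GFP culture B, 992 without β1-WT-GFP culture C). Of the members 2 were past both in all alternatives but 2: the count was 1 with at least 10 counts required in every culture, where Ttll7 and Ttll11 were removed by that filter, and 1 without β1-WT-GFP culture A, where Ttl fell short (between 1 and 2 over the cultures left out). Of the pathway genes 3 were past both, and between 3 and 5 with a culture left out, 5 without β1-WT-GFP culture C. Deviations from the group mean correlated at 0.11, 0.05 and 0.10 between cultures of the same letter, and at -0.16 to 0.11 between different letters. Whether the letters pair the samples is not settled by these values. With the letter as a replicate block 571 genes, 2 members and 3 pathway genes were past both.

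Among the named genes, Tubb6 (1.76, without β1-WT-GFP culture C), Tpgs1 (1.04, without β1-K794Q-GFP culture C) and Lphn2 (1.05, without β1-K794Q-GFP culture B) became past both thresholds when 1 culture was omitted. Pathway genes not named here also crossed. Without β1-K794Q-GFP culture B 4 pathway genes were past both, 3 of them lower, and without β1-WT-GFP culture C 5 were, 3 of them higher. Among genes not past the thresholds with all cultures, the sign of the log2 fold change turned in some fits. For Tuba1b it was 0.00053 under the filter of 10 counts and 0.068 with the block. Under the block it was also -0.49 for Lphn2 and 0.12 for Ifi44. With a culture left out the log2 fold changes ranged from -0.42 to 0.65 for Tuba1b, -0.15 to 0.39 for Ccdc23, -0.12 to 0.82 for Lrrc49, -0.68 to 0.47 for Tuba1c, -1.29 to 0.53 for Tubb2a, -0.12 to 0.45 for Tubb4b, -0.75 to 0.045 for Tubb5, -0.21 to 1.76 for Tubb6, -0.022 to 1.12 for Tgm2, -0.11 to 0.13 for Rpf1, -0.0044 to 0.22 for Prkacb, -0.041 to 1.05 for Lphn2 and -0.14 to 1.05 for Ifi44l. Among the members the ranges were -0.40 to 0.03 for Ttll4, -0.23 to 0.58 for Ttll11 and -0.85 to 0.50 for Vash2. The cause was not tested. Ttll7 and Map1a kept their direction in every fit that held them.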

Other observations

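Tsga14 (Cep41), a ciliary gene linked to tubulin glutamylation, was on the list of polyglutamylase partners and did not pass the filter on low counts. It had 115 reads (11.3 CPM) in β1-K794Q-GFP culture B and 0 reads in each of the other 5 cultures. It was singled out after its values were seen, and no test was made of a single culture. The limit that a count of 0 allows in those 5 cultures was 0.209 to 0.300 CPM.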
